A study of Homo sapiens with 16 samples.

Results

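Aminoacyl-tRNA synthetases are the enzymes that join each amino acid to its transfer RNA, and the human genome encodes separate sets for the cytosol and for mitochondria. The genes described here are 35 of the 60671 genes in the count table, defined by their names: 19 cytosolic enzymes, whose symbols end in ARS1 together with EPRS1, FARSA and FARSB, and 16 mitochondrial enzymes, whose symbols end in 2. The rule itself uses no expression value, and all 35 had enough counts to be tested. GARS1 and KARS1, placed here with the cytosolic set, are known to supply both compartments from a single gene.

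The cells were HEK293, a long-used epithelial cell line derived from human embryonic kidney. The submitters state that the long non-coding RNA gene LINC01016 is silent in it. Cells of 6 groups received a pcDNA3.0 plasmid with a cloned LINC01016 transcript, named T1, T2, CU1, CU2, CU1ENC or CU1ENU in the labels. Cells of the empty vector group received the plasmid without insert, and the parental group, labelled only so, is read here as HEK293 that were not transfected. Effects of reagent, plasmid and handling therefore cannot be told apart. Transfection used 5 micrograms of plasmid with Lipofectamine in 60 mm plates, cells were collected 48 hours later, and each of the 8 groups had 2 libraries.

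In the cytosol, several of these enzymes work as a large assembly, the multisynthetase complex, held together by non-enzymatic scaffold proteins, while others act outside it. The mitochondrial enzymes are made in the cytosol from nuclear genes and imported, and they charge the transfer RNAs that serve the few proteins encoded in mitochondrial DNA. When amino acids run short or the endoplasmic reticulum is stressed, kinases phosphorylate the initiation factor eIF2, and the transcription factor ATF4 is then translated and switches on many genes of amino acid supply, known synthetase targets among them.

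The libraries held 15040770 to 17255935 counts each. Levels are given as CPM, counts scaled to a common library size. LINC01016, the transfected gene, had 2617 to 12165 CPM in the 12 isoform libraries, 0.0613 and 0 CPM in the empty vector libraries and 0 and 0 CPM in the parental ones. All 6 HEK293 markers examined had a mean of at least 1 CPM, and their summed level was 234 to 273 CPM in the 14 transfected libraries against 287 to 309 CPM in the parental ones. Markers of blood cells (6), keratinocytes (3) and hepatocytes (2) each summed to under 1 CPM in every library. Of 5 fibroblast collagen and matrix markers, 3 reached 1 CPM, with sums of 43.5 to 56.2 CPM in transfected and 57.7 to 58.1 CPM in parental libraries. Among these markers NEFL, a neurofilament gene of HEK293 cells, fell by 0.42 on the log2 scale and LUM, a matrix gene, fell by 1.10 in empty vector against parental cells (adjusted p = 0.029 and 0.0298, edgeR), and their part in the results was not tested. In bulk RNA, fewer cells of a kind and less RNA per cell cannot be told apart.

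In empty vector against parental cells, 10 of the 19 cytosolic genes rose and 1 fell, at an adjusted p under 0.05 in edgeR's quasi-likelihood test, while of all 19316 genes tested 9.41% rose and 6.60% fell. The cytosolic genes that rose were CARS1, YARS1, VARS1, GARS1, MARS1, TARS1, FARSA, WARS1, IARS1 and SARS1, and QARS1 fell. Of the 16 mitochondrial genes, NARS2 rose and none fell. The median log2 fold change was 0.35 over the cytosolic genes, 0.08 over the mitochondrial genes and 0.01 over all genes. The difference between the compartments was not tested. Mitochondrial genes had fewer counts, and the standard error (SE) of their log2 fold changes ran from 0.08 to 0.69, against 0.08 to 0.15 for cytosolic genes.

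With replicate number as a block, which pairs the libraries numbered 1 and those numbered 2, 14 cytosolic genes rose and 1 fell in empty vector cells, and 4 mitochondrial genes rose and 2 fell. In that fit 18.4% of all genes rose and 15.9% fell. All 12 genes called without the block kept their call, and AARS1, FARSB, KARS1, NARS1, FARS2, MARS2 and YARS2 were added as higher and AARS2 and IARS2 as lower. Single libraries bear on the count: without parental replicate 1, 4 cytosolic genes were called higher, and without empty vector replicate 2, 5 were, with QARS1 called lower each time. Without parental replicate 1 no mitochondrial gene passed. CARS1, YARS1, GARS1, MARS1 and QARS1 passed with any single library left out.

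**Figure D1:**
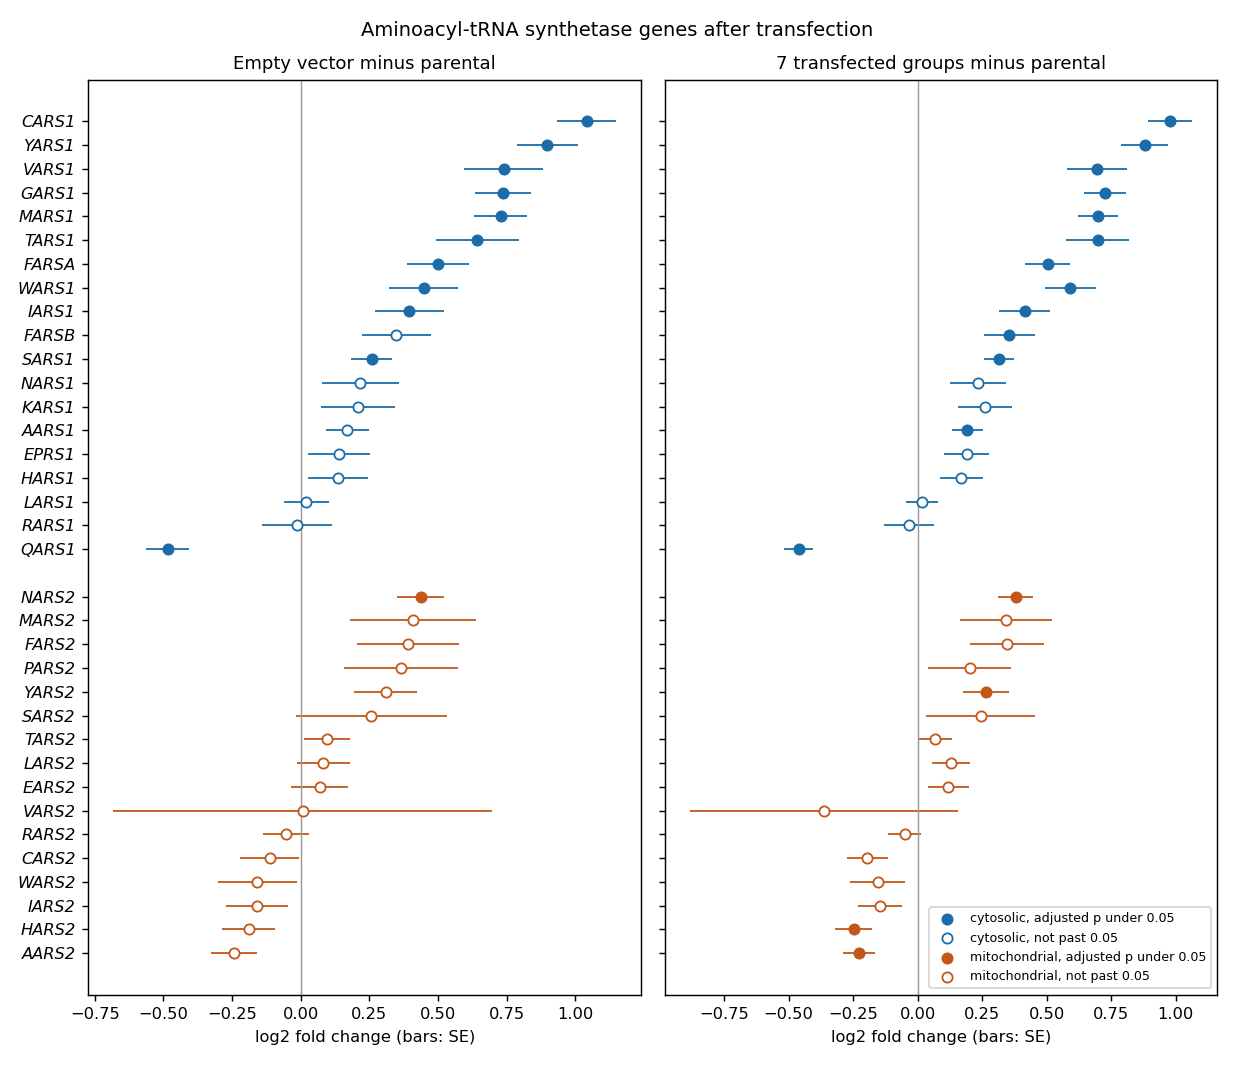
Log2 fold change (x axis, bars are SE) of the 19 cytosolic (blue, top) and 16 mitochondrial (orange, bottom) synthetase genes, for empty vector minus parental cells on the left and the mean of the 7 transfected groups minus parental cells on the right. Filled points passed an adjusted p of 0.05: 11 cytosolic genes and 1 mitochondrial gene on the left, 13 and 4 on the right.

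The mean of all 7 transfected groups against parental cells uses more libraries, but the same 2 parental ones. There 12 cytosolic genes rose, FARSB and AARS1 joining the list above, and QARS1 fell, beside 15.4% of all genes that rose and 14.3% that fell, 29.7% in all. Among mitochondrial genes NARS2 and YARS2 rose, and AARS2 and HARS2 fell. The median log2 fold change was 0.36 for cytosolic genes, 0.09 for mitochondrial genes and -0.00 for all genes. With the replicate block 16 cytosolic genes rose and 1 fell, and 4 mitochondrial genes rose and 4 fell, while 23.1% of all genes rose and 22.5% fell, 45.7% in all. LARS1, at 0.02 ± 0.06 (log2, SE), and RARS1, at -0.03 ± 0.10, passed in neither fit.

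CARS1, the cysteinyl-tRNA synthetase (ENSG00000110619, GRCh38 chromosome 11, 3000922 to 3057613, minus strand), moved most. It had a lowest, median and highest level of 99.99, 113.8 and 124.0 CPM over the 12 isoform libraries, 128.3 and 112.2 CPM in the empty vector libraries and 59.6 and 57.3 CPM in the parental ones. No transfected library came near a parental one. Its log2 fold change was 1.04 ± 0.11 (SE) in empty vector cells, a 2.06-fold rise (adjusted p = 6.16e-05, edgeR), and 0.98 ± 0.09 over the 7 transfected groups (adjusted p = 5.92e-06).

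YARS1, the tyrosyl enzyme (ENSG00000134684, chromosome 1, 32775237 to 32818153, minus strand), had 181.3, 195.1 and 223.1 CPM as lowest, median and highest of the isoform libraries, 195.6 and 208.8 CPM with empty vector, and 106.1 and 110.8 CPM in parental cells. The rise was 1.86-fold in empty vector cells (log2 0.90 ± 0.11, adjusted p = 0.00023, edgeR), with no overlap between transfected and parental libraries. VARS1, the valyl enzyme, lay at 194.9, 215.9 and 249.5 CPM in isoform libraries (lowest, median, highest), at 207.9 and 243.3 CPM with empty vector, and at 126.7 and 143.4 CPM in parental cells. Its log2 fold change with empty vector was 0.74 ± 0.14 (adjusted p = 0.00377, edgeR). Leaving out parental replicate 1 took that adjusted p to 0.0556.

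GARS1, the glycyl enzyme of cytosol and mitochondria (ENSG00000106105, chromosome 7, 30580533 to 30634033, plus strand), had 139.3, 155.8 and 165.6 CPM in the isoform libraries (lowest, median, highest), 150.3 and 162.0 CPM with empty vector, and 88.9 and 98.7 CPM in parental cells. It rose 1.67-fold with empty vector (log2 0.74 ± 0.10, adjusted p = 0.000482, edgeR). KARS1, the lysyl enzyme, is the other gene that serves both compartments. It had 152.2, 168.7 and 186.9 CPM in isoform libraries, 142.0 and 182.8 CPM with empty vector and 130.5 and 150.3 CPM in parental cells, so the libraries overlapped. Its log2 fold change with empty vector was 0.21 ± 0.13 (adjusted p = 0.316, and 0.0117 with the replicate block). Over the 7 transfected groups it was 0.26 ± 0.10 (adjusted p = 0.073, and 4.44e-05 with the block).

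QARS1, the glutaminyl enzyme (ENSG00000172053, chromosome 3, 49095932 to 49105130, minus strand), was the cytosolic gene that fell. It had 145.3, 154.3 and 161.3 CPM in the isoform libraries (lowest, median, highest), 147.6 and 154.7 CPM with empty vector, and 220.6 and 202.3 CPM in parental cells. Every transfected library lay below both parental ones. The log2 fold change was -0.48 ± 0.08 with empty vector, or 0.715-fold (adjusted p = 0.00117, edgeR), and -0.46 ± 0.06 over the 7 transfected groups (adjusted p = 6.16e-05).

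**Figure D2:**
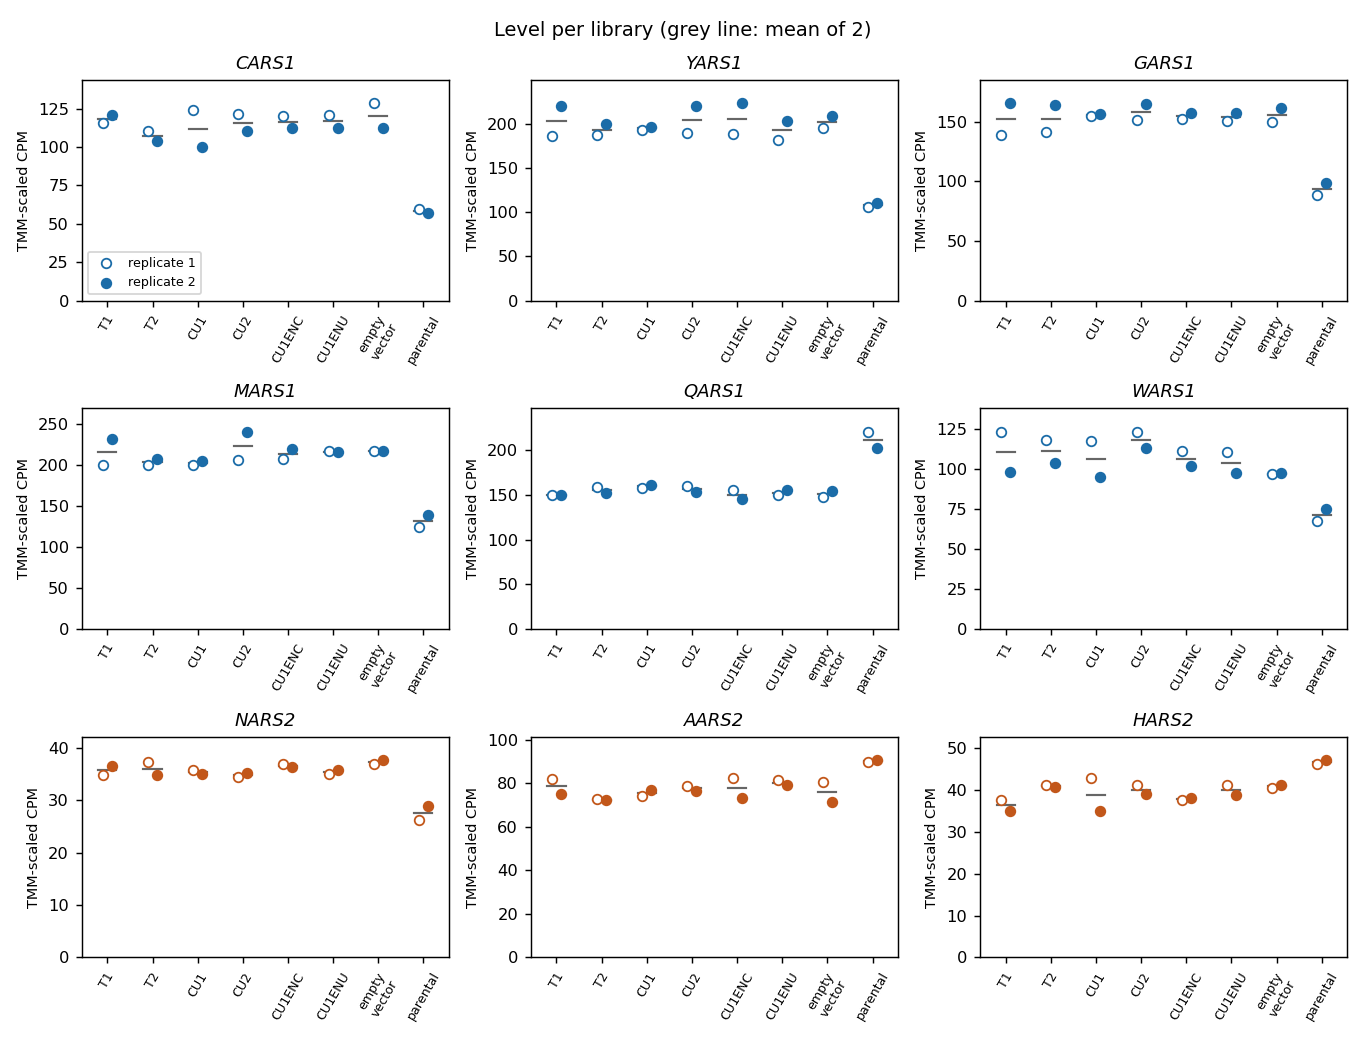
TMM-scaled CPM (y axis, from 0) of 9 synthetase genes in each library, with the 6 isoform groups, then empty vector, then parental cells along the x axis. Open points are replicate 1, filled points replicate 2, and grey lines the mean of 2; parental cells stand low for CARS1, YARS1, GARS1, MARS1, WARS1 and NARS2 and high for QARS1, AARS2 and HARS2.

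MARS1 belongs to the multisynthetase complex, as QARS1 does, and the 2 genes moved in opposite directions. MARS1, the methionyl enzyme, had 199.9, 208.2 and 240.8 CPM in the isoform libraries (lowest, median, highest), 217.8 and 217.8 CPM with empty vector, and 124.0 and 138.9 CPM in parental cells. The log2 fold change was 0.73 ± 0.10 with empty vector (adjusted p = 0.000367, edgeR). IARS1, the isoleucyl enzyme of the complex, had 308.4 and 345.5 CPM with empty vector against 221.6 and 275.2 CPM in parental cells, with a log2 fold change of 0.40 ± 0.13 (adjusted p = 0.0446).

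That IARS1 call is borderline. It was lost without any of 10 libraries in turn, namely both of empty vector, T2, CU1 and CU2, parental replicate 1 and CU1ENU replicate 2, with adjusted p from 0.0552 to 0.384, and also with median-of-ratios size factors or with only the compared groups in the fit. Over the 7 transfected groups IARS1 had an adjusted p of 0.00591 (edgeR), and 0.21 without parental replicate 1. Of the 7 enzymes of the complex, 2 rose (IARS1, MARS1) and 1 fell (QARS1) in empty vector cells, with a median log2 fold change of 0.14. EPRS1, the fused glutamyl and prolyl enzyme, had 0.14 ± 0.11, and LARS1, the leucyl enzyme, 0.02 ± 0.08, neither passing. Of the 12 cytosolic genes outside the complex, 8 rose and none fell, with a median of 0.47. Of all genes 9.41% rose and 6.60% fell. Over the 7 transfected groups 2 complex genes rose and 1 fell (median 0.19), and outside it 10 rose and none fell (median 0.55), beside 15.4% and 14.3% of all genes. With the replicate block 4 complex genes rose over the 7 groups, EPRS1 and KARS1 added, and 1 fell, and all 12 outside the complex rose, beside 23.1% and 22.5% of all genes. The 2 kinds were compared by count only.

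Of the 3 scaffold proteins of the complex, AIMP2 rose by 0.55 ± 0.13 (log2, SE, adjusted p = 0.0127) and EEF1E1, also called AIMP3, by 0.64 ± 0.16 (adjusted p = 0.0145) in empty vector cells (edgeR). AIMP1 had -0.09 ± 0.10. AIMP2 had 64.7 and 72.4 CPM with empty vector against 44.0 and 49.8 CPM in parental cells. EEF1E1 had 29.1 and 31.6 CPM against 18.2 and 20.9 CPM.

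TARS1, the threonyl enzyme, had the highest level per length of the cytosolic set and also rose. It had 346.2 and 389.8 CPM with empty vector against 209.5 and 261.6 CPM in parental cells, a log2 fold change of 0.64 ± 0.15 (adjusted p = 0.011, edgeR). The adjusted p became 0.134 without parental replicate 1 and 0.0907 without empty vector replicate 2. Phenylalanyl-tRNA synthetase is built from the products of FARSA and FARSB. FARSA had 126.9 and 137.6 CPM with empty vector against 90.5 and 96.5 CPM in parental cells, and rose by 0.50 ± 0.11 on the log2 scale (adjusted p = 0.0084, edgeR). Its adjusted p was 0.0899 without parental replicate 1 and 0.076 without empty vector replicate 2.

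FARSB had 91.7 and 104.3 CPM with empty vector against 70.1 and 83.7 CPM in parental cells, and its log2 fold change of 0.35 ± 0.13 missed the threshold there (adjusted p = 0.0746, and 6.68e-05 with the replicate block). Over the 7 transfected groups it passed (0.36 ± 0.10, adjusted p = 0.0143, edgeR), though not without parental replicate 1 (adjusted p = 0.308). SARS1, the seryl enzyme, had 161.3 and 156.0 CPM with empty vector against 135.3 and 129.9 CPM in parental cells. Its log2 fold change was 0.26 ± 0.08 with empty vector (adjusted p = 0.0313, edgeR) and 0.32 ± 0.06 over the 7 groups (adjusted p = 0.0012). The empty vector call was lost without any of 7 libraries in turn, both parental, both empty vector and both T2 libraries and CU1ENU replicate 2, with adjusted p from 0.0501 to 0.181, and also without the low-count filter or with only the compared groups in the fit.

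WARS1, the tryptophanyl enzyme, is also known as an interferon-induced gene. It had 95.1, 111.1 and 123.4 CPM in the isoform libraries (lowest, median, highest), 96.9 and 97.8 CPM with empty vector, and 67.7 and 75.1 CPM in parental cells. The log2 fold change was 0.45 ± 0.13 with empty vector (adjusted p = 0.0277, edgeR), a call lost without either parental or either empty vector library (adjusted p from 0.0667 to 0.203). Over the 7 transfected groups it was 0.59 ± 0.10 (adjusted p = 0.000643). Among transfected libraries WARS1 had 95.1 to 113.0 CPM in replicate 2 and 96.9 to 123.4 CPM in replicate 1, ranges that overlap. EIF2AK2, the interferon-induced kinase PKR, had 169 to 295 CPM in replicate 2 and 319 to 423 CPM in replicate 1 without overlap, and 159 and 167 CPM in parental cells. Its part in the WARS1 values was not tested.

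AARS1, the alanyl enzyme, had the smallest passing rise over the 7 groups, 0.19 ± 0.06 (log2, SE, adjusted p = 0.0257, edgeR). It had 153.1, 164.7 and 171.2 CPM in isoform libraries, 161.4 and 161.6 CPM with empty vector and 139.6 and 147.5 CPM in parental cells. Its call was lost without parental replicate 1 (adjusted p = 0.322), parental replicate 2 (0.088) or CU1ENU replicate 2 (0.0507), and also without the low-count filter. Between the 14 transfected and 2 parental libraries, 12 cytosolic genes lay above without overlap, 1 lay below, and 6 overlapped, where 16.8% of all genes lay above and 14.9% below. The summed cytosolic level was 3257, 3501 and 3690 CPM as lowest, median and highest of the transfected libraries, and 2554 and 2821 CPM in parental ones.

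**Figure D3:**
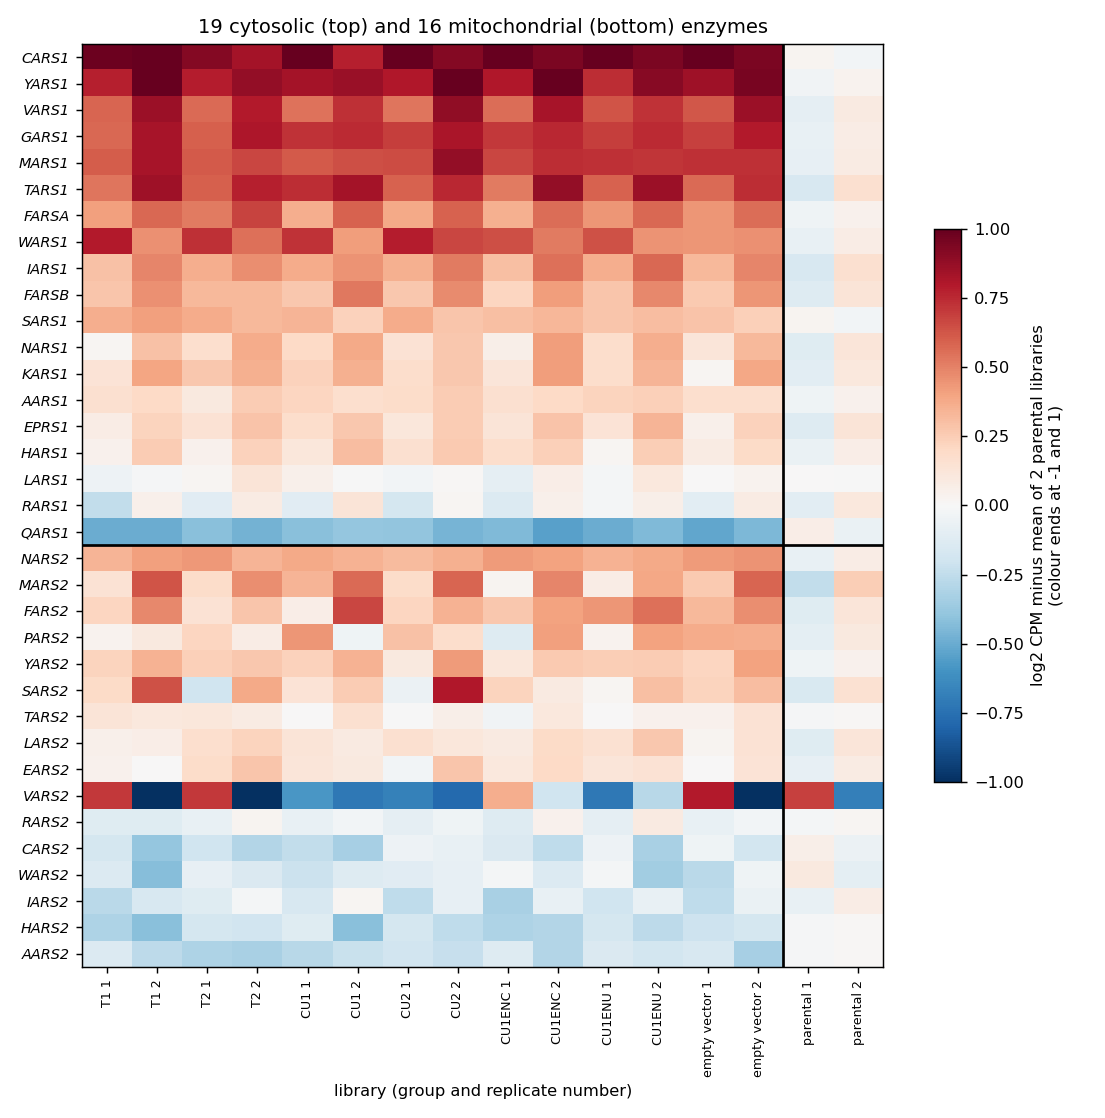
Log2 CPM of the 35 genes in each of 16 libraries, minus the mean of the 2 parental libraries, with isoform groups, empty vector and parental cells from left to right and cytosolic genes above the black line. Red is higher and blue lower than parental; the 12 cytosolic genes that rose over the 7 groups are red in all 14 transfected libraries, QARS1 is blue in all 14, and VARS2, with few counts, varies from library to library.

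Of the mitochondrial synthetase genes, 2 rose and 2 fell over the 7 groups without the block, beside 15.4% and 14.3% of all genes. NARS2, the mitochondrial asparaginyl enzyme (ENSG00000137513, chromosome 11, 78435968 to 78574874, minus strand), had 34.4, 35.5 and 37.3 CPM in isoform libraries (lowest, median, highest), 37.0 and 37.7 CPM with empty vector and 26.2 and 28.9 CPM in parental cells. All transfected libraries lay above the parental ones. It rose by 0.44 ± 0.09 on the log2 scale with empty vector, or 1.35-fold (adjusted p = 0.00409, and 0.0644 without parental replicate 1, edgeR). Over the 7 groups the rise was 0.38 ± 0.07 (adjusted p = 0.000872). Its cytosolic counterpart NARS1 had 0.22 ± 0.14 with empty vector and did not pass (adjusted p = 0.32, and 0.00334 with the replicate block).

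YARS2, the mitochondrial tyrosyl enzyme, had 32.6, 36.2 and 41.1 CPM in isoform libraries, 35.5 and 40.3 CPM with empty vector and 29.6 and 31.5 CPM in parental cells. Over the 7 groups it rose by 0.26 ± 0.09 (log2, SE, adjusted p = 0.0371, edgeR). That call was lost without any of 10 libraries in turn (adjusted p from 0.0504 to 0.327): both parental, T2 and CU1ENU libraries, and replicate 2 of empty vector, T1, CU1 and CU1ENC. With DESeq2, or without the filter on low counts, YARS2 did not pass either.

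AARS2, the mitochondrial alanyl enzyme (ENSG00000124608, chromosome 6, 44298731 to 44313347, minus strand), went the other way from AARS1. It had 72.1, 76.8 and 82.5 CPM in isoform libraries (lowest, median, highest), 80.5 and 71.5 CPM with empty vector and 89.5 and 90.5 CPM in parental cells. Over the 7 groups it fell by 0.23 on the log2 scale (SE 0.06, adjusted p = 0.0143, edgeR), and with empty vector alone it had -0.24 ± 0.08 (adjusted p = 0.065, and 0.00493 with the block). The adjusted p over the 7 groups was 0.0816 without parental replicate 1 and 0.0961 without parental replicate 2.

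HARS2, the mitochondrial histidyl enzyme, had 34.96, 39.0 and 42.8 CPM in isoform libraries, 40.5 and 41.3 CPM with empty vector and 46.2 and 47.2 CPM in parental cells. It fell over the 7 groups, by 0.25 on the log2 scale (SE 0.07, adjusted p = 0.019, edgeR), and the adjusted p was 0.091 without parental replicate 1 and 0.123 without parental replicate 2. Without the low-count filter neither HARS2 nor AARS2 passed. Of the 16 mitochondrial genes, 2 lay above and 2 below the parental libraries in all 14 transfected ones, and 12 overlapped. Of all genes 16.8% lay above and 14.9% below. The summed mitochondrial level was 708, 742 and 773 CPM as lowest, median and highest of the transfected libraries, against 742 and 789 CPM in parental ones.

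The other 12 mitochondrial genes passed in neither comparison without the block. With it, over the 7 groups, FARS2 (0.35 ± 0.11, log2 and SE of that fit) and MARS2 (0.34 ± 0.09) were called higher and CARS2 (-0.19 ± 0.06) and IARS2 (-0.15 ± 0.04) lower. IARS2, the most abundant mitochondrial member per length, had 194.4 and 222.5 CPM with empty vector against 220.3 and 245.1 CPM in parental cells. VARS2 counts are uncertain, because 63.0% of its exonic bases are shared with another gene on the same strand, and the same holds for 48.2% of SARS2. VARS2 had 0.722 to 2.88 CPM in transfected libraries and 2.66 and 1.04 CPM in parental ones.

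HARS1 and HARS2 lie head to head on chromosome 5, transcribed away from each other. The stretch between their RefSeq starts (GRCh38.p14, chr5:140691371-140691454, plus strand, 84 bases, 59.5% G or C) is shown because it lies between these 2 genes, whose fold changes had opposite signs. It is an interval only by the RefSeq starts: in the annotation used for the counts the genes overlap there on opposite strands, with starts 107 bases apart.
HARS1-HARS2 interval: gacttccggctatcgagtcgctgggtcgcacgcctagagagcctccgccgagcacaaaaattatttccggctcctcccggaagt
HARS1 had 98.1, 111.9 and 120.4 CPM in isoform libraries, 102.8 and 111.0 CPM with empty vector and 92.6 and 101.7 CPM in parental cells. Its log2 fold change over the 7 groups was 0.17 ± 0.08 and did not pass (adjusted p = 0.143, and 0.00335 with the replicate block, edgeR), whereas HARS2 fell. Of the other head-to-head neighbours within 1000 bases of a member, only UBFD1 beside EARS2 and ING1 beside CARS2 passed in empty vector cells. UBFD1 rose by 0.30 ± 0.08 (adjusted p = 0.0165, edgeR) and ING1 by 0.65 ± 0.14 (adjusted p = 0.00678), beside 9.41% of all genes that rose. EARS2 had 0.07 ± 0.10 there and CARS2 -0.11 ± 0.11. The neighbour of CARS1 had too few counts to be tested. DDX19B beside AARS1 did not pass with empty vector (0.41 ± 0.15, adjusted p = 0.0826, edgeR). It rose over the 7 groups (0.39 ± 0.12, adjusted p = 0.0241), as AARS1 did, beside 15.4% of all genes. TERF2IP, TARS1-DT, WDR25, LYRM4, ORC3, MRPS12, WARS2-AS1 and ENSG00000286950, each beside another member, passed in neither comparison without the block. With it, TERF2IP and MRPS12 passed over the 7 groups, beside 45.7% of all genes. In the annotation used for the counts, UBFD1, ING1 and DDX19B start inside the member beside them, on the opposite strand.

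The cytosolic and mitochondrial enzymes for the same amino acid form 15 pairs, counting EPRS1 with EARS2 and with PARS2. The log2 ratio of the cytosolic to the mitochondrial CPM had a higher mean in transfected than in parental libraries in 12 pairs. The median shift over all 15 was 0.42. Among the 12, transfected and parental libraries overlapped for RARS1/RARS2 (shift 0.02), EPRS1/EARS2 (0.07), SARS1/SARS2 (0.08), MARS1/MARS2 (0.35) and VARS1/VARS2 (1.03). For cysteine, CARS1/CARS2 averaged 1.39 in transfected libraries (range 1.21 to 1.65) and was 0.18 and 0.24 in parental ones. For tryptophan, WARS1/WARS2 averaged 2.57 in transfected libraries against 1.65 and 2.00 in parental ones. For tyrosine, YARS1/YARS2 averaged 2.44 in transfected libraries against 1.84 and 1.81 in parental ones.

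For leucine and asparagine the mean ratio was lower in transfected libraries. LARS1/LARS2 averaged 2.59 in transfected libraries against 2.83 and 2.58 in parental ones, and NARS1/NARS2 averaged 2.72 in transfected libraries against 2.82 and 2.91 in parental ones. EPRS1/PARS2 averaged 4.24 in transfected and in parental libraries alike, with transfected libraries from 3.91 to 4.55. These ratios carry the same fold changes as above, are not corrected for length, and were not tested.

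**Figure D4:**
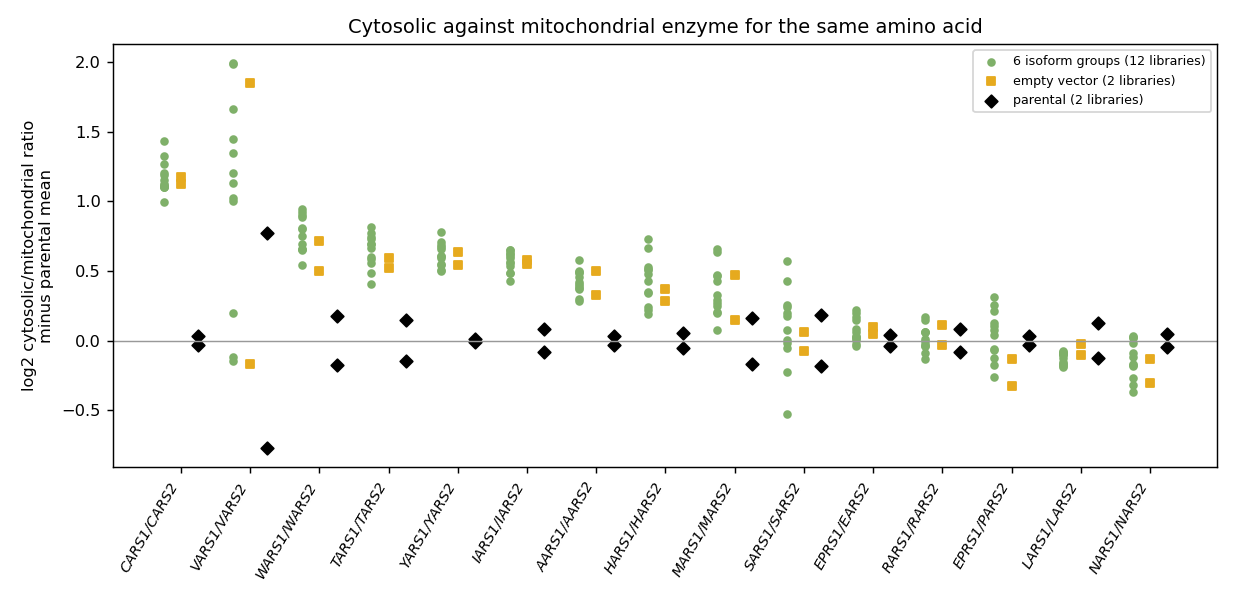
Log2 ratio of cytosolic to mitochondrial CPM for 15 enzyme pairs (x axis), minus the parental mean of that pair (y axis), for 12 isoform (green circles), 2 empty vector (yellow squares) and 2 parental libraries (black diamonds). CARS1/CARS2 stands highest among pairs with little spread, VARS1/VARS2 scatters because VARS2 had at most 2.88 CPM, and the transfected libraries of LARS1/LARS2 lie below 0.

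By enzyme class, of the 9 cytosolic class I genes 6 rose and 1 fell in empty vector cells (median log2 fold change 0.45), and of the 9 class II genes 4 rose and none fell (median 0.26). EPRS1 holds a domain of each class and is counted in neither. Of the mitochondrial genes, 0 of 9 in class I and 1 of 7 in class II rose, beside 9.41% of all genes. With the replicate block 6 cytosolic class I and 8 class II genes rose, and of the mitochondrial genes 2 in class I and 2 in class II, beside 18.4% of all genes. Class I and II differ in the fold of the catalytic domain and in how they bind ATP.

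Per exonic length, parental levels ranged over the mitochondrial set from 56.3 CPM per kilobase for IARS2 to 0.286 for VARS2, and over the cytosolic set from 55.3 for TARS1, 49.3 for NARS1 and 45.0 for QARS1 to 5.40 for GARS1. The length is the union of all annotated exons, which for GARS1 is 17366 bases and for LARS1 20639, so these levels are low for genes with many annotated alternative exons.

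No difference between the LINC01016 transcripts and empty vector was detectable in these genes. Against empty vector, no member passed in the mean of the 6 isoforms or in any single isoform, with edgeR, with the replicate block or with DESeq2, beside 0.0104% of all genes for the mean of the 6. At an unadjusted p under 0.05 in edgeR, 0 members passed for the mean of the 6, and 1 did for a single isoform, namely WARS1 in CU2 cells (log2 0.28 ± 0.13, unadjusted p = 0.0439, adjusted p = 1.00). For the mean of the 6, DESeq2 also gave 0 members at an unadjusted p under 0.05 and the blocked fit gave 1, WARS1. In single isoforms the blocked fit gave 3 members at that threshold for T1, 2 for T2, 2 for CU1, 1 for CU2 (WARS1, unadjusted p = 0.00282) and 0 for CU1ENC and CU1ENU. Of all 19316 genes, 290 met that threshold for the mean of the 6 and 1.23% for CU2. In the blocked fit the share was 4.03% for the mean of the 6, 2.94% for T1, 7.58% for T2, 4.83% for CU1 and 3.03% for CU2. An F-test over the 7 transfected groups likewise passed no member, beside 0.00518% of all genes, and CARS2 had its lowest unadjusted p, 0.36.

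For the members described first above, the isoform difference is given with its interval. Isoform cells against empty vector cells had a log2 fold change of -0.07 for CARS1 (95% interval -0.23 to 0.08), -0.02 for YARS1 (-0.19 to 0.14), -0.01 for GARS1 (-0.16 to 0.14) and 0.03 for QARS1 (-0.09 to 0.14). VARS1 had -0.05 (-0.26 to 0.16), MARS1 -0.03 (-0.18 to 0.11) and TARS1 0.06 (-0.16 to 0.29). WARS1 had 0.17 (-0.02 to 0.36). Each isoform group set against parental cells had 10 cytosolic genes higher and 1 lower, 1 mitochondrial gene higher and 0 or 1 lower. Among all genes 10.9% were higher and 8.58% lower for T1, 7.26% and 4.53% for T2, 8.36% and 5.07% for CU1, and 9.57% and 6.88% for CU2. For CU1ENC 10.0% were higher and 7.37% lower, 17.4% in all, and for CU1ENU 8.77% and 6.18%. With the replicate block each isoform group had 15 or 16 cytosolic genes higher and 1 lower, and 1 to 4 mitochondrial genes higher and 1 to 4 lower, beside 17.0% (T2) to 19.6% (T1) of all genes higher and 14.2% (T2) to 18.0% (T1) lower. These comparisons share the 2 parental libraries. CARS1 had log2 fold changes between 0.87 in T2 and 1.02 in T1 cells, and HARS2 was called lower in T1 (-0.36) and CU1ENC (-0.30) cells and AARS2 in T2 cells (-0.32). With the block HARS2 was called lower in CU1, CU2 and CU1ENU cells as well, and AARS2 in T1, CU1, CU2 and CU1ENC cells as well.

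Replicate number moved these genes as well. Within the 14 transfected libraries, 12 cytosolic genes were higher in replicate 2 than in replicate 1 and 2 were lower (CARS1, -0.13 ± 0.04, and WARS1, -0.18 ± 0.04, log2), beside 17.5% of all genes higher and 17.6% lower. The 12 lay between 0.11 for GARS1 and 0.23 for VARS1, and the median over all 19 was 0.15. Of the mitochondrial genes 5 were higher and 2, CARS2 and VARS2, lower, with a median of 0.05. RARS1, which passed no comparison with parental cells, had 104.1 to 112.1 CPM in replicate 2 and 86.4 to 101.1 CPM in replicate 1 of the transfected libraries. In 11 cytosolic and 2 mitochondrial genes (MARS2, YARS2) every replicate 2 library lay above every replicate 1 library, beside 7.64% of all genes. What the number stands for is not given, and its part in the transfection results was not tested beyond the blocked fit.

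**Figure D5:**
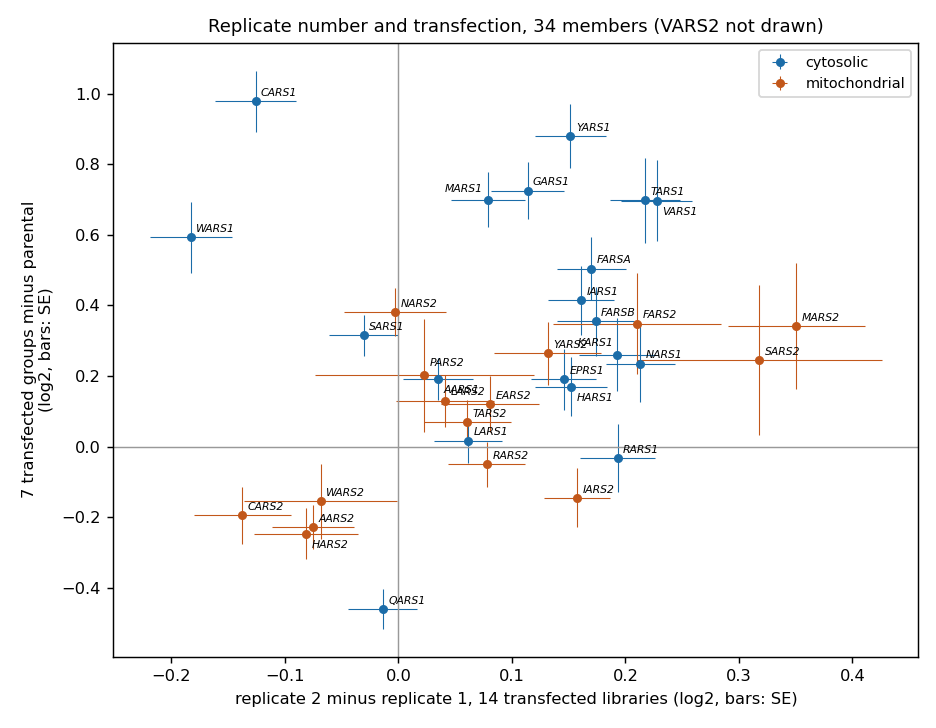
Log2 difference of replicate 2 minus replicate 1 within the 14 transfected libraries (x axis) against that of the 7 transfected groups minus parental cells (y axis) for 34 of the members, with SE bars, cytosolic in blue and mitochondrial in orange. CARS1 and WARS1 lie at the upper left, higher after transfection and lower in replicate 2, and RARS1 lies at the right near 0 on the y axis.

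Genes of the amino acid and stress response, regulators and others, were read in the same cells. Their part in the synthetase changes was not tested. Of 14 such genes, 8 rose and none fell in empty vector cells, with a median log2 fold change of 0.52 over the 14. Among all genes 9.41% rose and 6.60% fell. With the replicate block 8 of the 14 rose and 2 fell, beside 18.4% and 15.9% of all genes. DDIT3, which encodes the stress factor CHOP, had 27.8 and 29.1 CPM with empty vector against 12.2 and 10.8 CPM in parental cells, and rose by 1.30 ± 0.10 on the log2 scale (adjusted p = 3.79e-06, edgeR). ATF4 had 436.5 and 446.6 CPM against 299.0 and 325.9 CPM, a rise of 0.50 ± 0.09 (adjusted p = 0.00199). TRIB3, an inhibitor of ATF4 activity, rose by 0.97 ± 0.12 (adjusted p = 0.00028) and CHAC1, a glutathione-degrading enzyme, by 1.14 ± 0.24. ASNS, asparagine synthetase and a known ATF4 target, had 3.99 and 1.67 CPM against 1.78 and 1.22 CPM and did not pass (adjusted p = 0.222). Its counts are uncertain, since 49.3% of its exonic bases are shared with another gene on the same strand. The kinase GCN2, encoded by EIF2AK4, was lower over the 7 groups (-0.23 ± 0.07, adjusted p = 0.0161).

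Promoters were searched for the C/EBP-ATF response element, the kind of site that ATF4 binds with a C/EBP partner, as TGATGNAAN on both strands in the 250 bases before the RefSeq start. A promoter was found for 30 of the 35 members. The letters occurred in 3 of 16 cytosolic promoters, 1 of 14 mitochondrial ones and 3.87% of 27305 promoters of all genes. The 4 matches are shown with the element in capitals, each on its gene's own strand (GRCh38.p14). They lie at chr7:30594814-30594877 (plus strand) for GARS1, chr9:92293698-92293741 (minus) for IARS1, chr16:70289656-70289724 (minus) for AARS1 and chr12:32756056-32756124 (minus) for YARS2.
GARS1: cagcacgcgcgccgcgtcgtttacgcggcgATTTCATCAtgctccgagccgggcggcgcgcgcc
IARS1: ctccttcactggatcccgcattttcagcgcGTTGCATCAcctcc
AARS1: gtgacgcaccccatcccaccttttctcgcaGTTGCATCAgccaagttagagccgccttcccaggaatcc
YARS2: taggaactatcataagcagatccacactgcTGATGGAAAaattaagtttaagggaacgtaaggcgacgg
The first base of the element lay 34, 14, 188 and 197 bases before the RefSeq start in that order. It was on the strand opposite to the gene in the first 3 and on the gene's strand in YARS2. By the gene spans used for the counts, the matches of GARS1, IARS1 and AARS1 lie inside the gene and that of YARS2 before it. The GARS1 span begins far upstream of its match, at 30580533. All 4 genes rose over the 7 transfected groups, and the calls of IARS1, AARS1 and YARS2 were lost when parental replicate 1 was left out. CARS1, MARS1, WARS1 and other genes that rose gave no match. For members without a promoter no window was searched. For the others it says only that these letters are not in this window. The E-box CACGTG, which can be bound by MYC, was in 1 cytosolic promoter (IARS1), 2 mitochondrial ones (EARS2, MARS2) and 7.73% of all promoters.

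Other genes of transfer RNA charging and translation were read by list. Among all genes 9.41% rose and 6.60% fell with empty vector, or 18.4% and 15.9% with the replicate block. Over the 7 groups these shares were 15.4% and 14.3%, or 23.1% and 22.5% with the block. Of 6 editing and synthetase-like genes, PSTK, a kinase for selenocysteine synthesis, rose (0.67 ± 0.18, log2 and SE, adjusted p = 0.0188, edgeR) in empty vector cells. With the block 2 of the 6 rose, TARS3 added. None of the 4 mitochondrial amidotransferase and formylation genes passed (with the block QRSL1 was higher and GATC lower), and QRSL1 rose over the 7 groups (0.35 ± 0.10, adjusted p = 0.0216). Of 10 mitochondrial translation factors MTRF1L, a release factor, rose (0.41 ± 0.10, adjusted p = 0.011). Over the 7 groups the count among those 10 was 1 higher, and 5 higher with the replicate block.

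Of the 5 tested cytosolic elongation factors, EIF5A rose (0.53 ± 0.16, adjusted p = 0.0404, edgeR) and EEF1A1, which delivers charged transfer RNA to the ribosome, fell by 0.72 on the log2 scale (SE 0.09, adjusted p = 0.000177). EEF1A1 had 6834 and 7167 CPM with empty vector against 11599 and 11415 CPM in parental cells. Of 7 genes of transfer RNA export and processing none passed with empty vector, where 9.41% of all genes rose and 6.60% fell. With the replicate block 3 were higher and 1 lower, beside 18.4% and 15.9% of all genes. Over the 7 groups 3 rose, beside 15.4% of all genes, with XPOT, the transfer RNA exporter, at 0.29 ± 0.06 (adjusted p = 0.00376, edgeR).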

How the data were processed

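Bulk RNA of 16 HEK293 libraries, 2 in each of 8 groups, was measured, and groups and replicate numbers came from the sample titles. The authors deposited raw, unscaled counts of reads for each gene. The file headers name featureCounts 2.0.1, run on read pairs, with the strand setting 2 and the Ensembl release 101 annotation of GRCh38. Per the submitters' processing notes, HISAT2, DESeq2 and build GRCh38.p13 were used, with versions and settings not given in the sources used here. The header sets no option for reads that fit several genes or places, so genes with shared exons are uncertain, as said beside them. The deposited gene lengths are summed exonic bases, used for CPM per kilobase. Per the labels' protocols, RNA integrity numbers were above 9 and libraries kept strand by dUTP.

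Totals ran from 15040770 to 17255935 counts. Replicates differed by more than sampling noise (chi-square per degree of freedom 6.76 to 18.9). Nothing says they were separate cultures, so p-values measure the spread between libraries, which may be technical.

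The filter filterByExpr, at a minimum count of 10 and a minimum total of 15, kept 19316 genes. TMM factors lay between 0.974 and 1.03. CPM are TMM-scaled. edgeR 4.0.16 in R 4.3.3 fitted 8 group means over 16 libraries (8 residual degrees of freedom) with a robust quasi-likelihood F-test and Benjamini-Hochberg adjustment over all genes tested. The SE was taken from the F statistic (size of the log2 fold change over the root of F), and 95% intervals are 1.96 SE either side. The 2-against-2 exact permutation of a single gene cannot go below p = 0.333. On simulated counts for 200 changed genes, in empty vector against parental, 36% of 1.5-fold and 88.5% of 2-fold changes were recovered.

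Labels number the replicates 1 and 2 in each group. Deviations from the group mean were compared between libraries of equal number: over the 28 group pairs r was at least 0.162 and at most 0.442, with 0.248 in the middle. An alternative fit therefore took the numbers as pairing libraries, on the data alone, since no label says so. The main fit had no replicate term. The fit with replicate number as a block had 7 residual degrees of freedom and a common dispersion of 0.00436, against 0.0184 without it. Other alternatives were median-of-ratios size factors, deposited totals, no low-count filter, only the groups compared, DESeq2 1.42.0 and leaving out each library.

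Members and lists were chosen with earlier results of these data known. Named genes are the members, with per-library values for those of lowest p that passed in each compartment and for GARS1 and KARS1, then up to 3 per other list by lowest p, ATF4, DDIT3, ASNS and LINC01016. EIF2AK2, EIF2AK4, the head-to-head neighbours and some members given per library outside that rule were chosen after their values were seen. Promoters came from the RefSeq table (GRCh38.p14), searched over the 250 bases before the start only, and the HARS interval was read from its starts. Protein sequences were not used here.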

Additional observations from a re-analysis of the deposited data

How the results depend on the processing

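Over the settings tried, 1427 of 1505 recomputed single-gene values kept their side of the threshold. Another 55 fell short of it, 23 passed newly and 0 changed sign after a call. Values that did not pass could change sign: with 1 library left out, RARS1 ran from -0.15 to 0.07 over the 7 groups. The replicate block (paired fit) took mitochondrial genes higher in empty vector cells to 4 and lower to 2, and over the 7 transfected groups to 4 higher and 4 lower. It lost no member's call, and cytosolic counts stayed within 1.5 times. Without the low-count filter, 1 mitochondrial gene was higher and 0 lower over the 7 groups, and with DESeq2 1 was higher. The cause was not tested. Leaving out each library in turn, cytosolic genes higher numbered 4 to 10 with empty vector and 9 to 13 over the 7 groups, with 1 lower in every run. Mitochondrial genes higher numbered 0 to 1 and 1 to 3, and lower 0 to 0 and 0 to 3. The cytosolic minus mitochondrial median log2 fold change was 0.27 (0.21 to 0.35) with empty vector and 0.26 (0.22 to 0.34) over the 7 groups. No member passed against empty vector in any of these runs. Where a group was left with 1 library, it was assumed to vary like the others. With 2 parental libraries every comparison with parental cells rests on them, and VARS2, at 0.722 to 2.88 CPM in transfected libraries, allows no statement on small changes.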
